A study of Mus musculus with 20 samples.

Results

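The genes described here are 10 members of the NRF2 antioxidant pathway and of glutathione synthesis, chosen by name from the 55486 genes counted in each tissue: Nfe2l2, Keap1, Gclc, Gclm, Slc7a11, Gsr, Txnrd1, Srxn1, Nqo1 and Hmox1. RNA was sequenced in bulk from kidney and bone marrow of C57BL/6 mice treated for 8 weeks by intraperitoneal injection. The drug was oxaliplatin, a platinum compound that cross-links DNA, given at 10 mg/kg, and the vehicle in which it was dissolved, 5% dextrose, was the control. The labels name no genetic alteration in any group. Each tissue and treatment had 5 libraries, labelled as biological replicates, 20 in all. Treatment began at an age of 10 weeks, and tibia and femur were emptied of marrow 6 days after dosing ended. The methods name mice of both sexes, while all 20 libraries held Y-linked RNA. Collection of the kidney, and whether kidney and marrow came from the same mice, are not given in the sources used here.

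Nfe2l2 encodes NRF2, a transcription factor that KEAP1 holds in the cytoplasm and passes on for degradation. When electrophiles or oxidants modify KEAP1, NRF2 accumulates, pairs with a small MAF protein and binds antioxidant response elements in the promoters of detoxifying genes. Glutathione, the main small thiol of cells, is made from cystine taken up through SLC7A11, by the glutamate-cysteine ligase of GCLC and GCLM and then by glutathione synthetase. Platinum drugs bind thiols such as glutathione, and both kidney tubule cells and red cell precursors rely on it.

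Promoter sequence was available for 7 of the 10 members, in 9 windows of 250 bases before to 50 bases after the gene start (RefSeq, GRCm38.p6). Gclc, Gsr and Hmox1 had no entry. The letters of the antioxidant response element that CNC factors such as NRF2 bind with small MAF proteins were searched on both strands as TGACNNNGC and TGAGNNNGC. At least 1 match stood in 5 of the 9 windows, those of Nfe2l2, Gclm, Slc7a11, Srxn1 and 1 of the 3 Txnrd1 windows. Among 32851 promoter windows of the same length in the mouse genome, 27.8% held a match to either form, 12.4% to TGACNNNGC and 17.6% to TGAGNNNGC. The 250 bases before the start are shown for 4 members that were called in bone marrow, 1 higher and 3 lower, so that the sequences of genes that moved in opposite directions can be set side by side. Capitals mark the matches, which read as the reverse complement where they lie on the other strand.
Srxn1, chr2:152105274-152105523, plus strand: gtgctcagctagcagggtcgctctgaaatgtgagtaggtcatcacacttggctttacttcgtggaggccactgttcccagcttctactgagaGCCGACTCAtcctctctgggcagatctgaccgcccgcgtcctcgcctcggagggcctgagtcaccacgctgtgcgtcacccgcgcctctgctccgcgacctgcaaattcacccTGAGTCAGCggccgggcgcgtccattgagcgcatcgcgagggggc
Gclm, chr3:122245307-122245556, plus strand: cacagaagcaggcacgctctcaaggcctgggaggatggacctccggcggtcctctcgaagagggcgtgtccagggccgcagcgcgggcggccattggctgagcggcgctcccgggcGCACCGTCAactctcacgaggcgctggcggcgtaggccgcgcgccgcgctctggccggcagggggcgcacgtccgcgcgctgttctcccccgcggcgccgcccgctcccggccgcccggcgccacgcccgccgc
Slc7a11, chr3:50443614-50443863, minus strand: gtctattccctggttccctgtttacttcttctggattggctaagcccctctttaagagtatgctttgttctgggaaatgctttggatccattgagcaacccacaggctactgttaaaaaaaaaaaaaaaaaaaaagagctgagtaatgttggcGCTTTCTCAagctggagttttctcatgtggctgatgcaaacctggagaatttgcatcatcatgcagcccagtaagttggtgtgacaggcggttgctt
Nqo1, chr8:107403206-107403455, minus strand: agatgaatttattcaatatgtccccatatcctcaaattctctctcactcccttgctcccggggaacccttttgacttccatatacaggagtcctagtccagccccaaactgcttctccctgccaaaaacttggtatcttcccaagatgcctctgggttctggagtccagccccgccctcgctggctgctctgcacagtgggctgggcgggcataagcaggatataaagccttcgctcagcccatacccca
The Srxn1 window had 3 matches, of which the third began 29 bases after the start and is not shown. Its TGAGTCAGC, which began 45 bases before the start, also holds the letters TGAGTCA read by AP-1. The single matches of Gclm and Slc7a11 began 134 and 97 bases before the start. The Nqo1 window held none, which says only that these letters were not in this window.

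Total counts per library lay between 24393007 and 30925430 in kidney and between 30660153 and 41140527 in marrow. Values per mouse are CPM, counts relative to the library size after TMM scaling, and 3 counts corresponded to 0.0900 to 0.130 CPM in kidney and 0.0668 to 0.0975 CPM in marrow, for counting error only. For each tissue the groups were tested in edgeR (quasi-likelihood, two-sided), and p values were adjusted by the Benjamini-Hochberg method over all genes tested there. Genes with an adjusted p under 0.05 are said to have passed, and those that also differed by more than 1.5-fold to have been called, the limits used in the study. The median log2 fold change of all genes tested was 0.02 in kidney and -0.04 in marrow, and scaling by library size alone moved it to 0.16 and 0.11. Genes higher after oxaliplatin made up more of the called genes under that scaling, moving from 66.8% to 82.7% in kidney and from 49.6% to 63.4% in marrow. As a check of the labelled tissues, 8 proximal tubule markers summed to 15230.6 to 30129.9 CPM in kidney. In marrow the same markers summed to 587.3 to 950.8 CPM with vehicle and 67.6 to 168.6 CPM with oxaliplatin. The 12 neutrophil markers summed to 10828.1 to 28411.0 CPM in marrow and to no more than 3.40 CPM in kidney.

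In bone marrow, 3 genes that supply glutathione synthesis, Gclc, Gclm and Slc7a11, were lower after oxaliplatin, and Srxn1 was higher. All 10 members were tested. The 6 that passed were Gclc, Gclm, Slc7a11 and Nqo1, which fell, and Srxn1 and Txnrd1, which rose. Of these, 5 were called, Srxn1 higher and the other four lower. Of all 22363 genes tested, 23.3% were called (11.6% higher and 11.8% lower) and 33.1% passed (16.3% higher and 16.8% lower). In 4 members the groups did not overlap, Srxn1 above and Gclc, Gclm and Nqo1 below the vehicle group, beside 24.9% of all genes (11.4% above and 13.5% below). The median log2 fold change of the 10 members was -0.26. In the same libraries late erythroid markers were lower in 13 of 13 genes and summed to 32095.1 to 55433.5 CPM with vehicle and to 4001.4 to 10576.0 CPM with oxaliplatin. In bulk RNA, fewer cells of a type and less RNA per cell cannot be told apart.

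**Figure D1:**
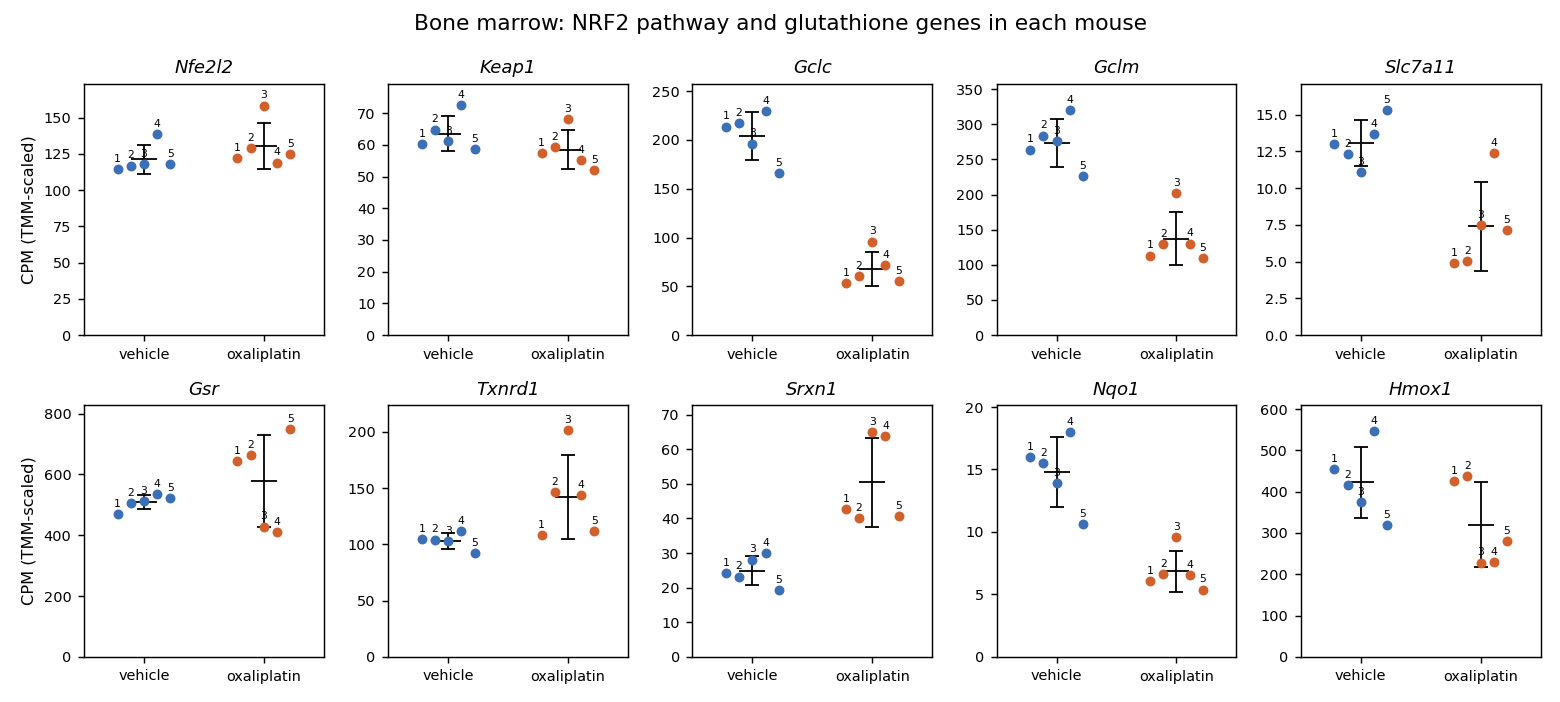
Each panel plots 1 gene in bone marrow, with TMM-scaled CPM on a linear axis from 0, 5 vehicle-treated mice in blue and 5 oxaliplatin-treated mice in orange, numbered by mouse, and the mean and SD in black. Gclc, Gclm and Nqo1 lay lower in every oxaliplatin-treated mouse than in any vehicle-treated mouse, Srxn1 lay higher, and oxaliplatin-treated mice 3 and 4 stood apart from the remaining mice in Gsr.

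In kidney fewer members were called and the changes that passed were smaller than 1.5-fold, apart from that of Gclm. Of the 9 members tested, 4 passed: Nfe2l2, Srxn1 and Nqo1 rose and Gclm fell. Only Gclm was called, lower after oxaliplatin. Of all 19293 genes tested, 11.5% were called (7.68% higher and 3.81% lower) and 29.4% passed (14.4% higher and 15.0% lower). The groups of the 4 members that passed did not overlap, beside 20.7% of all genes (9.69% above and 11.0% below the vehicle group). The median log2 fold change of the 9 members was -0.03. Slc7a11 had too few counts to be tested in kidney, with 2 to 8 counts in vehicle-treated and 4 to 16 in oxaliplatin-treated mice.

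**Figure D2:**
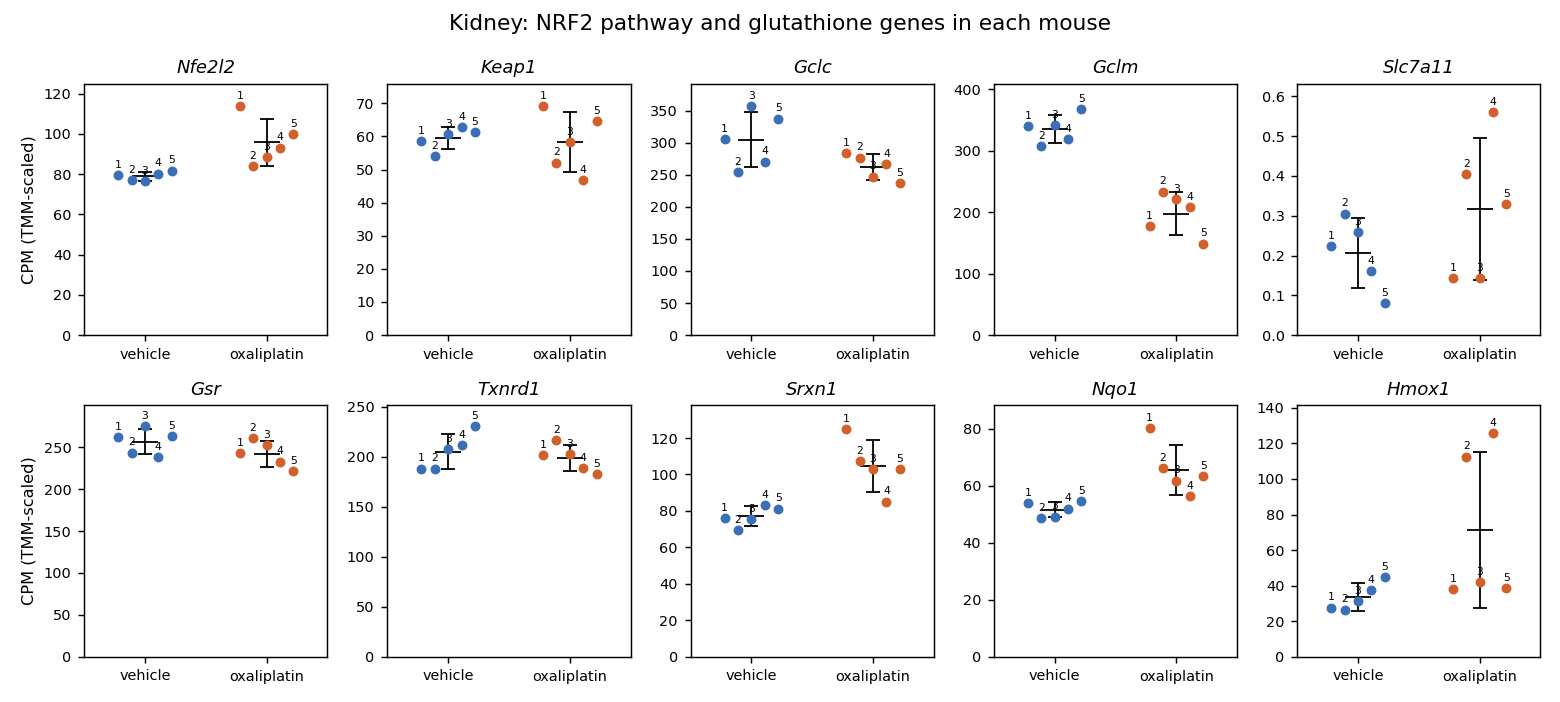
Each panel plots 1 gene in kidney, drawn as for bone marrow, with TMM-scaled CPM on a linear axis from 0, mice numbered, and the mean and SD of 5 mice in black. Gclm lay lower and Nfe2l2, Srxn1 and Nqo1 higher in every oxaliplatin-treated mouse, and Hmox1 was raised in oxaliplatin-treated mice 2 and 4.

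Nfe2l2 (chr2:75675513-75704641, minus strand, GRCm38) was measured first, as the gene of the transcription factor itself. In kidney it stood at 79.6, 77.0, 76.5, 80.3 and 81.8 CPM in the vehicle-treated mice and at 113.9, 83.9, 88.6, 93.2 and 100.1 CPM after oxaliplatin. The groups did not overlap, and oxaliplatin-treated mouse 1 was highest. The rise was 1.21-fold (log2 fold change 0.28 ± 0.0759 SE, adjusted p = 0.0103). In marrow Nfe2l2 stood at 114.3, 116.9, 118.1, 138.5 and 118.0 CPM with vehicle and at 122.2, 129.2, 158.3, 119.0 and 124.9 CPM with oxaliplatin. These groups overlapped, with 1 high mouse in each, and the difference of 0.11 ± 0.0972 (log2, SE) did not pass (adjusted p = 0.427, 95% interval -0.10 to 0.32). With library size alone the difference was 0.26 and passed (adjusted p = 0.0340), short of a call.

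Keap1 (chr9:21229730-21239361, minus strand), which encodes the sensor that restrains NRF2, ran from 54.1 to 62.8 CPM in vehicle-treated kidney and from 46.8 to 69.2 CPM after oxaliplatin. The treated range enclosed the vehicle range, with mice 1 and 5 above it and mice 2 and 4 below it. The log2 fold change was -0.03 (adjusted p = 0.827), and it was 0.11 (adjusted p = 0.308) without oxaliplatin-treated mice 2 and 4 and 0.10 with library size alone. In marrow Keap1 ran from 58.6 to 72.4 CPM with vehicle and from 52.0 to 68.2 CPM with oxaliplatin, and its log2 fold change of -0.12 did not pass (adjusted p = 0.372) and was 0.03 with library size alone. Keap1 shares exon bases with the antisense gene Gm16754, whose log2 fold change was 1.36 in kidney (adjusted p = 0.0138, 38 to 169 counts after oxaliplatin) and -0.50 in marrow (adjusted p = 0.305). The strand setting of the counting is not given in the sources used here. It is therefore not known whether reads on the shared bases were assigned by strand or left out as ambiguous.

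Gclc (chr9:77754535-77794485, plus strand) encodes the catalytic subunit of glutamate-cysteine ligase, the rate-limiting enzyme of glutathione synthesis. In marrow its values were 213.7, 216.9, 196.3, 229.6 and 165.9 CPM with vehicle and 53.3, 60.1, 95.7, 71.6 and 55.7 CPM with oxaliplatin. Every treated mouse lay far below every vehicle-treated mouse, with treated mouse 3 the highest of its group. Gclc fell 3.04-fold, the largest difference among the 10 members in marrow (log2 fold change -1.60 ± 0.158, adjusted p = 7.6e-06). In kidney the values were 305.5, 254.1, 357.0, 270.5 and 337.4 CPM with vehicle and 283.8, 276.8, 247.1, 266.2 and 236.6 CPM with oxaliplatin. The kidney groups overlapped in 3 treated mice, and the difference of -0.22 (log2, 95% interval -0.41 to -0.03) did not pass after adjustment (adjusted p = 0.0786). It passed, short of a call, without vehicle-treated mouse 2 (-0.28, adjusted p = 0.0233) and with a filter of 1 count in any library (-0.22, adjusted p = 0.0395).

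Gclm (chr3:122245557-122270732, plus strand) encodes the modifier subunit that makes the ligase efficient, and it fell in both tissues. In kidney it read 339.6, 307.7, 341.5, 319.6 and 368.1 CPM with vehicle and 177.0, 233.5, 221.7, 208.6 and 149.0 CPM with oxaliplatin. All 5 treated mice lay below all 5 vehicle-treated mice, a 1.69-fold fall (log2 fold change -0.76 ± 0.103, adjusted p = 6.8e-05). In marrow it read 263.9, 283.9, 275.9, 320.4 and 225.9 CPM with vehicle and 113.1, 129.9, 202.6, 130.2 and 110.1 CPM with oxaliplatin. Again the groups did not overlap, although treated mouse 3 came close to the lowest vehicle-treated mouse, and the fall was 2.00-fold (log2 fold change -1.0 ± 0.162, adjusted p = 3.8e-04). Gclm shares exon bases with Gm17494 on the opposite strand, which held 57 to 124 counts in kidney and 125 to 358 in marrow and whose log2 fold change was 0.14 in kidney (adjusted p = 0.592) and -1.17 in marrow (adjusted p = 5.9e-05).

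Slc7a11 (chr3:49892526-50443614, minus strand) encodes the cystine carrier that brings in the limiting building block. In marrow it stood at 13.0, 12.3, 11.1, 13.7 and 15.3 CPM with vehicle and at 4.90, 5.05, 7.5, 12.4 and 7.12 CPM with oxaliplatin. Treated mouse 4 lay within the vehicle range and the other four lay below it. The fall was 1.77-fold (log2 fold change -0.82 ± 0.228, adjusted p = 0.0137), and with library size alone it no longer passed (log2 fold change -0.66, adjusted p = 0.0515). In kidney the gene lay between 0.0810 and 0.561 CPM in the 10 mice, near the level of 3 counts.

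Gsr (chr8:33652523-33698163, plus strand), glutathione reductase, returns oxidised glutathione to its working form. In kidney it ran from 238.2 to 274.9 CPM with vehicle and from 221.3 to 260.4 CPM with oxaliplatin, with a log2 fold change of -0.08 (adjusted p = 0.373) that was 0.05 with library size alone. In marrow it stood at 470.1, 506.2, 513.0, 535.4 and 521.0 CPM with vehicle and at 642.6, 662.5, 428.2, 410.4 and 748.7 CPM with oxaliplatin. The treated mice fell on both sides of the vehicle range, mice 1, 2 and 5 above it and mice 3 and 4 below it. With all mice the log2 fold change was 0.18 ± 0.160 (adjusted p = 0.419), and without treated mice 3 and 4, a choice made after seeing the data, it was 0.43 (adjusted p = 0.00161).

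Txnrd1 (chr10:82833951-82897712, plus strand) encodes the cytosolic thioredoxin reductase, which uses NADPH to keep thioredoxin reduced. Its marrow values were 104.9, 104.3, 102.6, 111.9 and 92.6 CPM with vehicle and 108.2, 146.2, 201.6, 143.5 and 111.9 CPM with oxaliplatin. Treated mouse 3 was highest, and treated mice 1 and 5 lay at the top of the vehicle range. The rise was 1.38-fold (log2 fold change 0.46 ± 0.150, adjusted p = 0.030), under the limit for a call, and it did not pass without treated mice 3 and 4 (0.24, adjusted p = 0.0821). Leaving out any of 6 single mice also ended it, with adjusted p between 0.0545 and 0.0764. The rise was called, however, with library size alone (0.61, adjusted p = 0.00634) and without treated mouse 5 (0.59, adjusted p = 0.0122). In kidney Txnrd1 ran from 188.4 to 230.6 CPM with vehicle and from 183.2 to 217.1 CPM with oxaliplatin, with a log2 fold change of -0.05 (adjusted p = 0.659) that was 0.09 with library size alone.

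Srxn1 (chr2:152105516-152111376, plus strand) encodes sulfiredoxin, which repairs peroxiredoxins that peroxide has overoxidised, and it was the member that rose in both tissues. In marrow it stood at 24.1, 23.2, 28.1, 29.9 and 19.3 CPM with vehicle and at 42.6, 40.1, 65.0, 63.7 and 40.7 CPM with oxaliplatin. The groups were apart in every mouse, and treated mice 3 and 4 were the highest. The rise was 2.03-fold (log2 fold change 1.02 ± 0.170, adjusted p = 4.7e-04), and it was still called without these mice (0.72, adjusted p = 3.4e-04). In kidney it stood at 76.2, 69.5, 75.5, 83.3 and 81.3 CPM with vehicle and at 124.9, 107.2, 102.9, 85.1 and 103.1 CPM with oxaliplatin. These groups did not overlap either, although treated mouse 4 lay just above the highest vehicle-treated mouse, and the rise was 1.36-fold (log2 fold change 0.44 ± 0.0861, adjusted p = 0.00111).

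Nqo1 (chr8:107388225-107403206, minus strand) encodes a quinone reductase that is widely used as a readout of NRF2, and it went in opposite directions in the 2 tissues. In kidney it stood at 53.8, 48.7, 49.2, 52.0 and 54.7 CPM with vehicle and at 80.1, 66.1, 61.8, 56.3 and 63.3 CPM with oxaliplatin. In marrow it stood at 16.0, 15.5, 13.9, 18.0 and 10.6 CPM with vehicle and at 6.05, 6.64, 9.58, 6.54 and 5.39 CPM with oxaliplatin. Neither pair of groups overlapped, all treated kidneys lying above and all treated marrows below their vehicle groups. Nqo1 rose 1.27-fold in kidney (log2 fold change 0.34 ± 0.0827, adjusted p = 0.00487) and fell 2.16-fold in marrow (log2 fold change -1.11 ± 0.181, adjusted p = 3.8e-04).

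Hmox1 (chr8:75093621-75100589, plus strand) encodes heme oxygenase 1, which breaks down heme and is prominent in macrophages that clear red cells. In kidney it stood at 27.7, 26.5, 31.4, 37.6 and 45.0 CPM with vehicle and at 38.2, 112.6, 42.1, 125.9 and 38.7 CPM with oxaliplatin. Treated mice 2 and 4 were far above all other mice, and treated mice 1, 3 and 5 lay within the vehicle range. Its log2 fold change of 1.09 was the largest of the 9 members in kidney, but its SE of 0.422 was also the largest, and it did not pass (adjusted p = 0.0886). DESeq2 gave 1.07 and an adjusted p of 0.0417, and without treated mice 2 and 4 the value was 0.25 (edgeR adjusted p = 0.267). Late erythroid markers were 13 genes, among them Slc4a1, which is also in the collecting duct list used here. In kidney 9 of them were tested and 1 was called, higher. They summed to 890.5 and 846.5 CPM in treated kidneys 2 and 4, to 168.0 to 371.0 CPM in the other treated kidneys and to 366.3 to 547.4 CPM with vehicle. Macrophage markers in the same kidneys summed to 83.7 to 101.8 CPM with oxaliplatin and 115.9 to 128.2 CPM with vehicle, with kidneys 2 and 4 at the lower and the upper end of the treated range. The part of either in the Hmox1 values was not tested.

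In marrow Hmox1 stood at 455.6, 416.2, 373.9, 547.4 and 318.8 CPM with vehicle and at 426.1, 437.0, 228.2, 229.7 and 280.3 CPM with oxaliplatin. Treated mice 1 and 2 lay within the vehicle range, and mice 3, 4 and 5 below it. The log2 fold change was -0.40 ± 0.209 and did not pass (adjusted p = 0.168), and it was -0.15 without treated mice 3 and 4 (adjusted p = 0.605).

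The response of the 2 tissues was compared directly as the interaction of tissue and treatment, fitted to all 20 libraries as independent samples with 1 scaling for both tissues. The difference passed for 6 of the 10 members, beside 30.1% of all 24321 genes tested. The log2 response in marrow was below that in kidney by 1.32 for Gclc (adjusted p = 4.2e-05), 1.38 for Nqo1 (adjusted p = 2.3e-05) and 1.44 for Hmox1 (adjusted p = 0.0180). Hmox1 had passed in neither tissue alone, and without treated mice 2 and 4 its kidney log2 fold change was 0.25. The marrow response was above that in kidney for Srxn1, by 0.65 (adjusted p = 0.0230), and for Txnrd1, by 0.58 (adjusted p = 0.0244). For Slc7a11 the marrow response was below that in kidney by 1.37 (adjusted p = 0.0464). It passed on kidney counts near the limit of detection, and leaving out most single mice ended that call. For Gclm the responses differed by 0.17 (adjusted p = 0.603, 95% interval of marrow minus kidney -0.62 to 0.28). The intervals for Nfe2l2 (-0.38 to 0.17), Keap1 (-0.32 to 0.28) and Gsr (-0.03 to 0.66) also included 0, which does not show that the tissues responded alike.

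**Figure D3:**
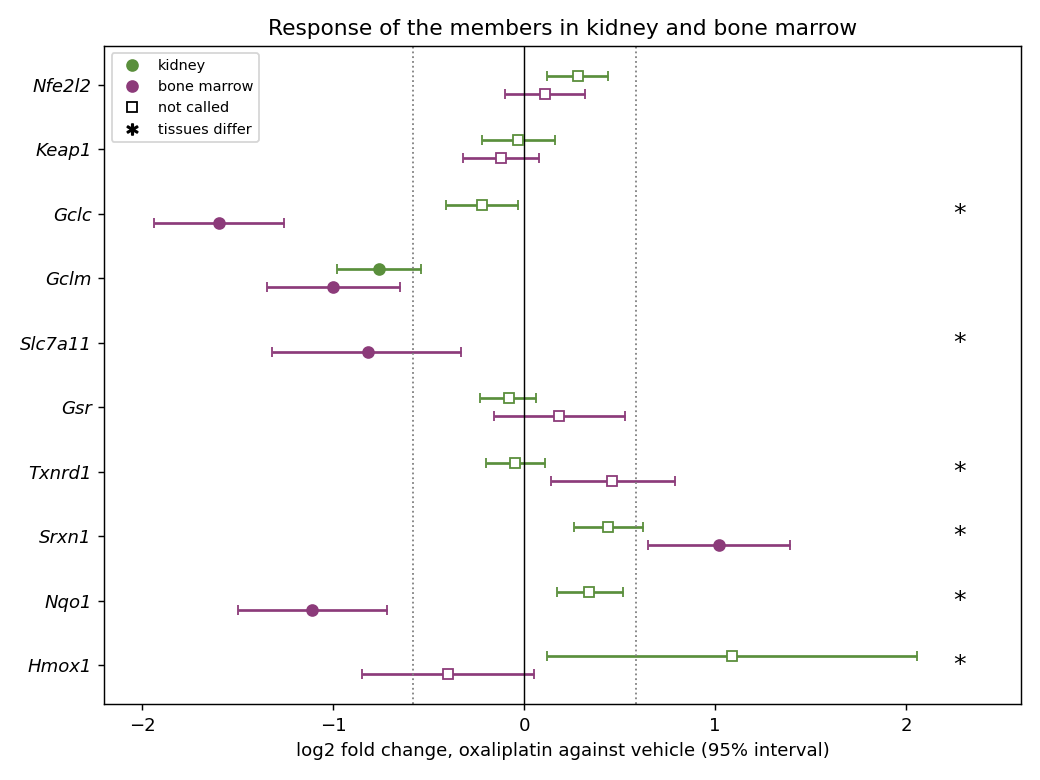
The horizontal axis is the log2 fold change of oxaliplatin against vehicle with its 95% interval, for each member in kidney (green) and bone marrow (purple). Filled circles are called genes, open squares are not, dotted lines mark 1.5-fold, and asterisks mark the 6 members whose response differed between tissues. Nqo1 lies at 0.34 in kidney and -1.11 in marrow, and Slc7a11 has no kidney value.

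Levels were compared between genes as CPM per kilobase of exon. In vehicle-treated kidney Gsr (93.1 ± 5.48, mean ± SD, n = 5) and Gclc (81.0 ± 11.5) led and their ranges overlapped, followed by Gclm (53.3 ± 3.68), Nqo1 (33.3 ± 1.72), Txnrd1 (29.0 ± 2.5) and Srxn1 (27.4 ± 1.92). Ranges of neighbours in that order overlapped from Nqo1 to Srxn1. Nfe2l2 (20.8 ± 0.582), Hmox1 (19.2 ± 4.37) and Keap1 (12.7 ± 0.721) came next, and Slc7a11 (0.0148 ± 0.00628) last. After oxaliplatin, Gclm moved from the third to the sixth place with 31.5 ± 5.5, its range overlapping those of Srxn1 and Txnrd1. The order depended on the length used: per kilobase of each gene's longest transcript, 27 of the 40 places (10 genes in 4 groups) were the same. Txnrd1, whose exons cover 7086 bases in all and whose longest transcript has 3622, then stood at 56.7 ± 4.9 in vehicle-treated kidney, its range above that of Nqo1 (33.3 ± 1.72) and overlapping that of Gclm (60.0 ± 4.14), and Gclm moved from the third to the eighth place after oxaliplatin.

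The order in marrow differed from that in kidney. With vehicle, Hmox1 led at 241.2 ± 49.3 CPM per kilobase, its range overlapping that of Gsr at 184.9 ± 8.86, and Gclc (54.3 ± 6.53), Gclm (43.6 ± 5.43) and Nfe2l2 (31.9 ± 2.59) followed. Txnrd1 (14.6 ± 0.979) and Keap1 (13.5 ± 1.18) overlapped, as did Nqo1 (9.52 ± 1.77) and Srxn1 (8.83 ± 1.49), and Slc7a11 was lowest (0.940 ± 0.111). With oxaliplatin Gclc dropped from the third to the seventh place at 17.9 ± 4.61, overlapping Srxn1 at 17.9 ± 4.53. Per kilobase of the longest transcript Gclc dropped to the sixth place, and Txnrd1 (28.5 ± 1.91) and Keap1 (17.5 ± 1.53) did not overlap in vehicle-treated marrow.

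Markers of other marrow cells moved with treatment too, or differed between treated mice. The 12 neutrophil markers summed to 10828.1 and 12452.7 CPM in treated mice 3 and 4 and between 22680.7 and 28411.0 CPM in treated mice 1, 2 and 5, against 20131.7 to 24566.9 CPM with vehicle. Of 12 macrophage markers 4 were higher and 3 lower, with a sum of 816.8 to 1187.2 CPM with vehicle and 1122.7 to 2523.7 CPM with oxaliplatin. All 10 adipocyte markers were higher, with a sum of 178.0 to 264.0 CPM with vehicle, 3907.7 and 3909.2 CPM in treated mice 3 and 4, and 870.4 to 3755.6 CPM in the other treated mice. Treated mice 3 and 4 were thus the 2 with the lowest neutrophil sum, the lowest Gsr and Hmox1 and the highest Srxn1 and Gclc. Skeletal muscle markers were called higher in 5 of 6 genes, with a sum of 9.51 to 95.8 CPM with vehicle. After oxaliplatin the sum was 40.7 CPM in treated mouse 4 and 297.8 to 740.9 CPM in the other treated mice, highest in mouse 3. Endothelial markers were called higher in 3 of 6 genes (215.1 to 276.0 CPM with vehicle, 276.7 to 521.3 CPM with oxaliplatin). Of 7 markers each, 1 of osteoblasts and stroma was called higher and 1 of T cells lower. The part of these cell types and of the red cell precursors in the members' values was not tested.

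**Figure D4:**
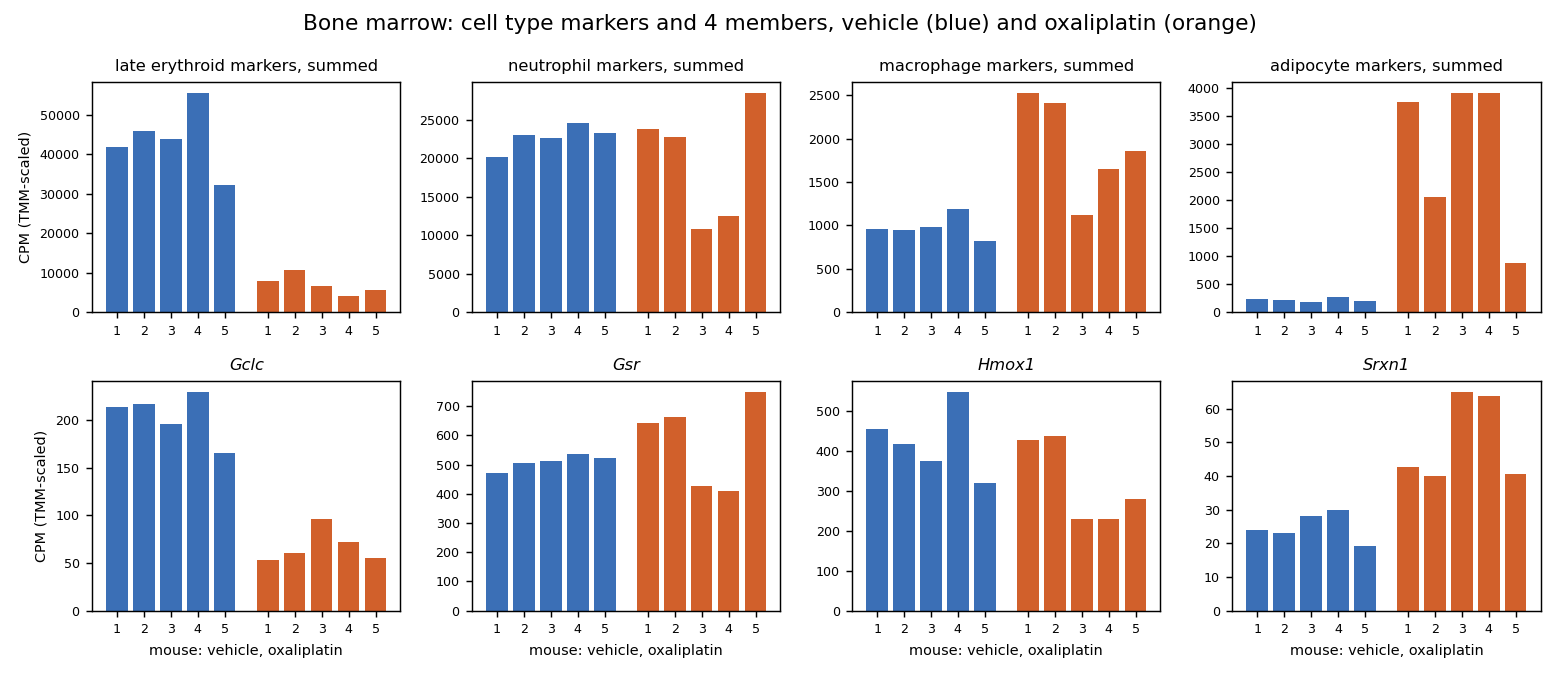
Bars give TMM-scaled CPM in bone marrow on a linear axis from 0, for each of 5 vehicle-treated (blue) and 5 oxaliplatin-treated (orange) mice. The upper panels sum the markers of late erythroid cells, neutrophils, macrophages and adipocytes, and the lower panels show Gclc, Gsr, Hmox1 and Srxn1. Treated mice 3 and 4 have neutrophil sums of 10828.1 and 12452.7 CPM and the 2 lowest Gsr values.

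The kidney markers also moved. Proximal tubule markers summed to 25269.4 to 30129.9 CPM with vehicle and to 15230.6 to 21535.9 CPM with oxaliplatin, with 3 of 8 genes lower. Markers of tubular injury summed to 280.3 to 327.1 CPM with vehicle and to 509.8 to 646.8 CPM with oxaliplatin, with 2 of the 5 tested genes higher. Markers of osteoblasts and stroma were called higher in 4 of the 5 tested genes (652.9 to 714.4 CPM with vehicle, 989.4 to 1109.5 CPM with oxaliplatin) and podocyte markers in 3 of 4 (230.9 to 238.5 and 334.0 to 411.4 CPM). Endothelial markers were called higher in 3 of 6 genes (290.1 to 314.5 and 360.7 to 590.4 CPM), adipocyte markers in 5 of the 9 tested (224.8 to 293.9 and 278.1 to 481.4 CPM) and collecting duct markers in 1 of 5 (456.3 to 562.5 and 601.8 to 750.9 CPM). Of the 7 macrophage markers tested, 1 was higher and 4 were lower. None of the 5 markers of the loop and distal tubule was called by edgeR, although their sum of 5338.7 to 5946.1 CPM with oxaliplatin lay above that of 4406.5 to 5156.6 CPM with vehicle. The part of these cells in the kidney values of the members was not tested.

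Among 21 other NRF2 target genes, 20 were tested in each tissue and Gpx2 in neither. In kidney 8 were called, 6 higher and 2 lower, and in marrow 7 were called, 5 higher and 2 lower. These were 8 of 20 in kidney, beside 11.5% of all genes, and 35.0% in marrow, beside 23.3%. The median log2 fold change of the 20 genes was 0.06 in each tissue. Ephx1, the microsomal epoxide hydrolase, rose in both: from 48.4 ± 1.96 to 217.1 ± 32.4 CPM in kidney (mean ± SD, n = 5, 4.49-fold, adjusted p = 2.3e-10) and from 17.6 ± 2.43 to 55.7 ± 7.80 CPM in marrow (3.16-fold, adjusted p = 8.3e-07). Cbr3, a carbonyl reductase, also rose in both, 2.73-fold in kidney (adjusted p = 0.00202) and 2.17-fold in marrow (adjusted p = 0.00677), at levels under 10 CPM in every mouse. Aox1, aldehyde oxidase, was the third gene called higher in both tissues, 2.24-fold in kidney (adjusted p = 0.00609) and 3.46-fold in marrow (adjusted p = 0.00307). Its groups overlapped in both, with 4 treated mice above the vehicle range in each tissue. Kidney counts of Aox1 were low, 16 to 33 with vehicle and 28 to 88 with oxaliplatin.

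Other targets went apart. Me1, the cytosolic malic enzyme that makes NADPH and is also a gene of fat-synthesising cells, fell 2.11-fold in kidney (428.7 to 500.9 CPM with vehicle, 145.8 to 290.2 CPM with oxaliplatin, adjusted p = 0.00150). In marrow it rose 9.73-fold (1.40 to 2.66 CPM with vehicle, 7.12 to 34.9 CPM with oxaliplatin, adjusted p = 3.4e-05). Adipocyte markers were also higher there, and their part in the Me1 values was not tested. Abcc3, an exporter of conjugates, rose 3.55-fold in kidney (adjusted p = 0.00446) and fell 2.75-fold in marrow (adjusted p = 9.5e-06). For both genes the response differed between tissues, with a log2 response in marrow 4.43 above that in kidney for Me1 (adjusted p = 4.0e-07) and 3.22 below it for Abcc3 (adjusted p = 8.3e-07). The carbonyl reductase Cbr1 was called in kidney, 2.69-fold higher (adjusted p = 0.00631), and Blvrb, the biliverdin reductase of red cells, in marrow, 2.80-fold lower (adjusted p = 2.8e-05). Akr1b8, an aldo-keto reductase, rose 4.94-fold in marrow (adjusted p = 1.2e-04).

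Of 25 other glutathione genes, 24 were tested in kidney, all but Dpep2, and 13 passed, 3 higher and 10 lower, with a median log2 fold change of -0.20. The 13 were 54.2% of those tested, beside 29.4% of all genes (14.4% higher and 15.0% lower), and the 4 called were 16.7%, beside 11.5%. The genes called were Ggt5, which cleaves extracellular glutathione conjugates and rose 2.15-fold (adjusted p = 3.5e-05), Ggct (1.94-fold lower, adjusted p = 0.00341), Gss (1.65-fold lower, adjusted p = 4.7e-04) and Cbs (1.57-fold lower, adjusted p = 0.00107). Gss encodes glutathione synthetase, the enzyme after the GCLC and GCLM ligase, and it fell from 300.0 ± 25.9 to 182.2 ± 37.2 CPM. In kidney Gss and Gclm were therefore both lower, while Gclc did not pass. In marrow Gss had a log2 fold change of 0.31 (adjusted p = 0.0653), and the response of Gss differed between the tissues by 1.10 (adjusted p = 1.2e-04).

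In marrow 24 of the 25 were tested, all but Ggt6, and 12 were called, 8 higher and 4 lower, with a median of 0.35. The 12 of 24 stand beside 23.3% of all genes (11.6% higher and 11.8% lower). Those lower were Hagh, glyoxalase 2 (3.73-fold, adjusted p = 5.8e-07), Chac2, which degrades glutathione (3.51-fold, adjusted p = 4.0e-06), Glrx5, which red cell precursors need for heme synthesis (2.21-fold, adjusted p = 8.9e-04), and Gpx1, the main glutathione peroxidase of red cells (1.97-fold, adjusted p = 2.0e-04). The largest rise was that of Gpx7, 3.55-fold, from 0.709 ± 0.208 to 2.52 ± 0.858 CPM (adjusted p = 6.5e-04). The other genes called higher were Cth, Ggt1, Oplah, Gpx3, Ggt7, Dpep1 and Glrx3. Among these the groups overlapped in all but Oplah and Gpx3. Cth held only 2 to 16 counts with vehicle and 10 to 38 with oxaliplatin.

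The 18 genes of thioredoxins, peroxiredoxins and peroxide removal were tested in both tissues. In kidney 12 passed and all 12 were lower, with a median log2 fold change of -0.35, but only Sod1 (1.65-fold lower, adjusted p = 3.8e-04) and Msrb2 (1.54-fold lower, adjusted p = 2.0e-04) were called. The 12 included Txn1, Txn2, Cat and 5 peroxiredoxins, Prdx1, Prdx2, Prdx3, Prdx5 and Prdx6, whose enzymes remove peroxide. The share that passed was 66.7%, beside 29.4% of all genes (15.0% lower), and the share called was 11.1%, beside 11.5%. In marrow 9 passed, 6 higher and 3 lower (9 of 18, beside 33.1% of all genes), and 7 were called (38.9%, beside 23.3%). Sod3, the extracellular superoxide dismutase, rose 10.7-fold (1.69 to 4.28 CPM with vehicle, 11.3 to 45.6 CPM with oxaliplatin, adjusted p = 6.1e-05), and Prdx1, Sod2 and Txnip rose less. Txnrd2, the mitochondrial thioredoxin reductase, fell 3.48-fold (adjusted p = 7.6e-06), Prdx2, an abundant protein of red cells, 2.69-fold (adjusted p = 4.9e-04), and Cat 1.76-fold (adjusted p = 6.6e-04).

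Among 13 partners and regulators of NRF2, none was called in kidney by edgeR, beside 11.5% of all genes, and 5 had an unadjusted p under 0.05. In all 4 passed, Nfe2l1 higher and Cul3, Sqstm1 and Bach1 lower. The share that passed was 30.8%, near the 29.4% of all genes (14.4% higher and 15.0% lower). DESeq2 called 1, the small MAF gene Maff (log2 fold change 1.12, adjusted p = 0.0238, against 0.0504 in edgeR). In marrow 6 passed (46.2%, beside 33.1% of all genes) and 5 were called (38.5%, beside 23.3%). Bach2, a repressor that competes for the same elements and is a gene of B cells, fell 7.54-fold, from 69.8 to 116.8 CPM with vehicle to 10.0 to 16.0 CPM with oxaliplatin (adjusted p = 1.2e-07). B cell markers were lower in 9 of 10 genes in the same libraries, with a sum of 382.9 to 677.6 CPM with vehicle and 106.5 to 181.1 CPM with oxaliplatin, and their part in Bach2 was not tested. Btrc, a ubiquitin ligase subunit that recognises NRF2, fell 4.85-fold (adjusted p = 2.8e-08). The small MAF genes went apart, Mafk 2.12-fold lower (adjusted p = 3.1e-06) and Maff 2.16-fold higher (adjusted p = 7.1e-04).

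**Figure D5:**
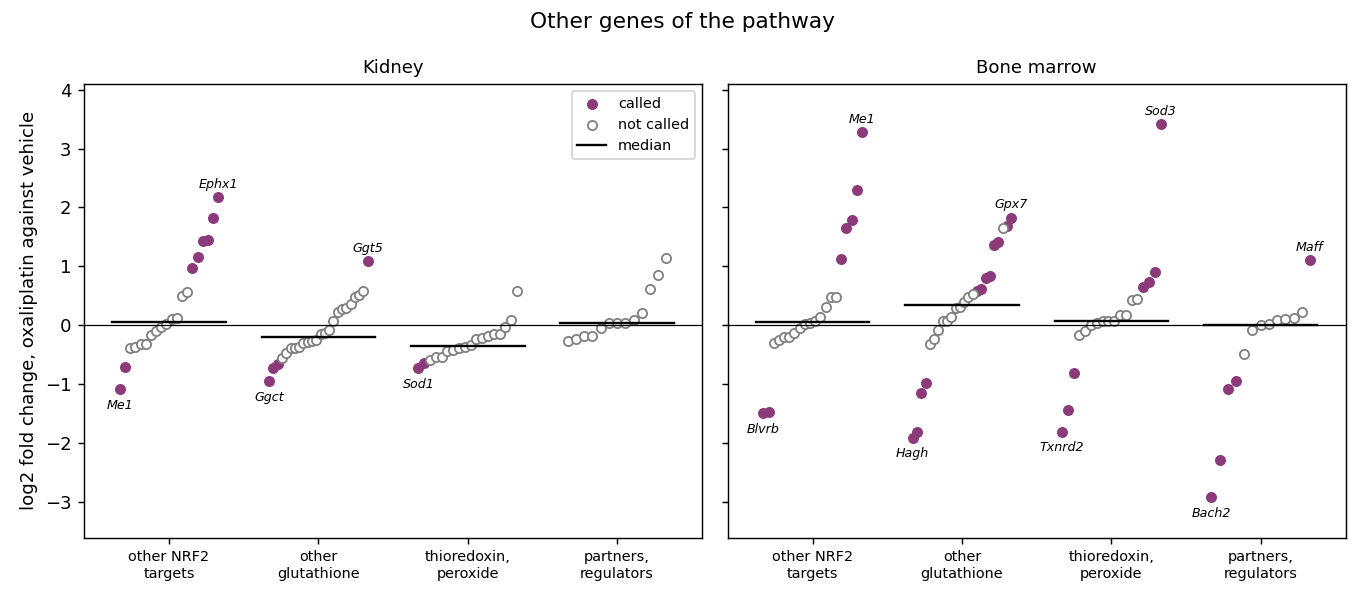
Each circle is 1 gene of 4 lists, with the log2 fold change of oxaliplatin against vehicle on the vertical axis, kidney at left and bone marrow at right. Filled circles are called genes, open circles are not, bars are medians and the called genes at the ends of each list are named. The kidney median of the thioredoxin and peroxide genes lies at -0.35, and marrow values run from -2.91 for Bach2 to 3.42 for Sod3.

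The genes most like each member over the 20 libraries were found among 14068 genes by the root mean square difference of log2 CPM, each gene centred on its own mean, which reads the tissue difference and the treatment together. Gclc was nearest to Cnnm2 and Bcl7a (0.193 and 0.194, against an own spread of 1.04). Slc7a11 was nearest to Rad54l and Kif20a (0.401 and 0.409, own spread 2.40), genes of recombination repair and of cell division. Hmox1 was nearest to Slc40a1, the iron exporter, and to Lepr (0.456 and 0.460, own spread 1.42), Gsr to Ostf1 and Flot1 (0.103 and 0.114, own spread 0.399) and Nqo1 to Acss1 and Kcnn1 (0.197 and 0.204, own spread 1.54). For Srxn1 they were Lzts2 and Cdc42bpb (0.187 and 0.218, own spread 0.994), for Txnrd1 Polr2m and Isoc1 (0.109 and 0.117, own spread 0.635), and for Gclm Thoc7 and Scrn3 (0.199 and 0.201, own spread 0.647). Nfe2l2 (Patz1 and Vezf1) and Keap1 (Rpl37a and Gm16238) varied little, with own spreads of 0.180 and 0.228.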

How the data were processed

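RNA-seq libraries of 5 mice per tissue and treatment were used. The authors deposited raw counts per gene, from uniquely aligned, unambiguous reads, without normalization. The paper names STAR, Ensembl release 101 and Partek Flow. The submitters' processing notes name STAR, featureCounts and Salmon, and library preparation is likewise given in 2 ways, SMARTer cDNA with an RNA integrity number above 7 and removal of ribosomal RNA with random hexamers. Strand use in counting is not given in the sources used here. From the 55774 lines of each table, 287 duplicates of a gene's line and 1 incomplete line were dropped.

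Members and lists were chosen with earlier results of these data known. Groups came from the labels. In edgeR 4.0.16 (limma 3.58.1, R 4.3.3), filterByExpr at a minimum count of 10 was followed by TMM scaling and a robust quasi-likelihood fit with treatment alone, the study's limits being an adjusted p of 0.05 and 1.5-fold. The interaction was fitted to 20 libraries. Named genes were all members, the 3 called genes of each list and tissue with the largest change, genes needed to say what a count is made of, and the 2 genes most like each member. Positions came from GENCODE mouse release 21 (GRCm38), which covers 55227 identifiers. Levels per kilobase used the union of exons. Intervals are at 95%, and log2 CPM used a prior count of 2.

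Alternatives were DESeq2 1.42.0, its size factors, library size alone, other filters, a test against 1.5-fold, hemoglobin genes left out, a replicate block, the longest transcript's length, and each mouse left out. No 2 libraries of a group agreed within counting noise (chi-square per degree of freedom of 7.51 or more). The fits were checked on simulated data with 200 genes changed 2-fold and 1 spread for all genes. The kidney fit recovered 97.5% of them, the marrow fit 99% and the interaction fit 61%, with 5, 5 and 4 false calls. Plots used matplotlib 3.10.9 (Python 3.11.15).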

Additional observations from a re-analysis of the deposited data

Results flagged for a closer look

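In 3 of 40 groups of 5 mice, 1 mouse stood apart from the others by a gap larger than 0.71 of the group's range, which chance gives in about 1 in 20 groups. Nfe2l2 in marrow had 1 such mouse in each group, vehicle-treated mouse 4 at 138.5 CPM and oxaliplatin-treated mouse 3 at 158.3 CPM. Gclm had 1 in oxaliplatin-treated marrow, mouse 3 at 202.6 CPM, the mouse in which Gclc and Txnrd1 were also highest in that group.

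The log2 response to oxaliplatin differed between the tissues for 6 members by the interaction test of edgeR. Marrow minus kidney was -1.32 for Gclc, -1.37 for Slc7a11, -1.38 for Nqo1 and -1.44 for Hmox1, and it was 0.58 for Txnrd1 and 0.65 for Srxn1.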

How the results depend on the processing

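Of 49 single-gene results, 30 kept their direction and their call under every alternative run. The members called numbered 1 in kidney (1 with any mouse left out), 2 with DESeq2, which added Hmox1, and 0 in a test against 1.5-fold, where Gclm had an adjusted p of 0.300. In marrow the 5 called members stayed at 5 to 6 with single mice left out. Against 1.5-fold, the called genes in kidney were 2 of the other NRF2 targets (8 before, 7 to 9 with a mouse left out), 1 of the other glutathione genes (4 before) and 0 of the thioredoxin and peroxide genes (2 before), and in marrow 6 of the other glutathione genes (12 before) and 3 of the thioredoxin and peroxide genes (7 before). That test asks for more than a fold change past the limit. In marrow the other glutathione genes called numbered 8 to 13 with single mice left out. The kidney thioredoxin and peroxide count was 1 with library size alone and 1 to 4 with single mice left out, 4 without oxaliplatin-treated mouse 2 or 3 and 1 without mouse 5. The kidney partners count of 0 became 1 with DESeq2, RLE size factors, library size alone and the filter of 10 counts in every library, and was 0 to 1 with a mouse left out. The causes were not tested.

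Values near 0 changed sign. Keap1 in kidney was 0.10 with library size alone, 0.11 without oxaliplatin-treated mice 2 and 4, and -0.09 to 0.05 with single mice left out. With library size alone Gsr and Txnrd1 in kidney were 0.05 and 0.09, and Keap1 in marrow was 0.03. The Keap1 interaction was -0.11 to 0.06 with single mice left out. Members with a response that differed between tissues numbered 6, and 4 to 7 with a mouse left out. Slc7a11 lost that call with most mice left out (adjusted p up to 0.134), Txnrd1 without vehicle-treated kidney 5 (0.0503), and Hmox1 with the filter of 1 count (0.0565), while Gsr gained it without oxaliplatin-treated marrow 4 (0.0326).

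Deviations of same-numbered vehicle-treated and oxaliplatin-treated mice had low correlations (-0.154 to 0.0754 in kidney and -0.118 to 0.228 in marrow). These few values cannot decide whether the numbers pair the mice. With the number as a replicate block the called members were 1 in kidney, 5 in marrow and 5 in the interaction, the other glutathione genes in marrow 8 and the thioredoxin and peroxide genes in kidney 3. A covariate of Y-linked genes was not run, since all libraries held this RNA. Its mean log2 CPM was 4.27 to 4.76 in kidney and 4.61 to 5.42 in marrow. Treated marrows 1, 2 and 5 (5.18, 5.00 and 4.61) lay below the vehicle range of 5.27 to 5.42. Per kilobase of the longest transcript in place of all exon bases, 27 of the 40 places of the members by level were the same, with Txnrd1 higher in the order in 3 of the 4 groups. Depth limits Slc7a11 in kidney, with at most 16 counts.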
